A study of Mus musculus with 2 samples.

Results

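The 9 chemokine genes described here are Ccl1, Ccl2, Ccl7, Ccl20, Cxcl1, Cxcl2, Cxcl12, Cxcl14 and Cxcl16. They were chosen by symbol from the 31053 features of the deposited tables, and each symbol matched a single feature. On GRCm38.p6, Ccl1, Ccl2, Ccl7 and Cxcl16 lie on chromosome 11 (starts 82176666, 82035577, 82045712 and 70454389), Ccl20 on chromosome 1 (83116766), Cxcl1 and Cxcl2 on chromosome 5 (90891245 and 90903899), Cxcl12 on chromosome 6 (117168535) and Cxcl14 on chromosome 13 (56288643).

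Single-cell RNA-seq (10x Genomics) was run at postnatal day 53 on dorsal skin from 1 mouse with inducible miR-205 and 1 control. Both mice were C57BL/6 per the labels, were matched for gender and carried the K14-H2BGFP allele, a nuclear green fluorescent reporter of keratin 14-expressing epithelium. In the inducible line a pTRE2-miR-205 transgene, made by injection in FVB mice, is switched on by doxycycline through Krt14-rtTA, so the epithelium and not the dermis or the leukocytes is where the transgene is driven. Chow with doxycycline was given for 4 days from postnatal day 49. According to the protocol for extraction and to the methods, both mice ate this chow, but the control is listed as untreated among its characteristics. If the latter is right, doxycycline and miR-205 cannot be told apart. Epidermal, hair follicle and dermal cells were sorted and mixed at a fixed ratio, so that the sort sets the shares of these compartments.

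Chemokines are small proteins, most of them secreted, that guide the migration of leukocytes and other cells through G protein-coupled receptors. Inflammatory chemokines such as Ccl2, Cxcl1 and Cxcl2 are induced by NF-κB and by stress, often in short bursts, and their messengers are short-lived. Homeostatic ones such as Cxcl12 and Cxcl14 are made steadily by stroma and epithelium.

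The control library held 4545 barcodes and 55465594 unique molecular identifiers (UMIs, 1 per captured transcript), and the induced library 4264 barcodes and 49733560 UMIs. After the filter stated by the study, 3936 control and 3628 induced cells remained, with medians of 12198.5 and 11752.5 UMIs per cell. The libraries shared 11 barcodes, 5 of them among the kept cells. Integration gave 24 clusters, of which 22 held at least 20 cells in each library and 16 could be named from marker genes. Clusters without a name are given by number and leading genes. The labels speak of epithelial and dermal cells, yet T cell-like, macrophage-like and Langerhans or antigen-presenting-like clusters were also found. T cell-like cluster 18 held 17 control and 77 induced cells. The host transcript of endogenous miR-205, 4631405K08Rik, had 5202 control and 4789 induced UMIs (log2 ratio 0.04, 95% interval −0.02 to 0.09), which does not read the transgene and so does not check the label.

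Levels are CPM, the raw UMIs of a gene summed over the cells named and scaled to all UMIs of those cells (counts-per-million). Ratios are log2 of the induced over the control level, after adding 0.5 UMIs to each sum. With 1 library per group no difference could be tested. The 95% intervals are exact Poisson or binomial intervals and cover counting error only, not the spread between cells or mice.

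Summed over all kept cells, no chemokine of the 9 differed by 2-fold or more. Alternatives passed 2-fold for Ccl1, at −2.11 without the 5 highest cells of each library and −1.39 as a mean over cells, and for Cxcl2, at 1.22 among cells with under 5% mitochondrial UMIs. Of 14484 genes with at least 20 UMIs, 1.09% were at least 2-fold lower and 6.39% at least 2-fold higher in the induced library. Cxcl14 had the highest ratio of the 9 (0.70, 0.68 to 0.72), from 39395 control to 57385 induced UMIs. Cxcl2 followed (0.47, 0.39 to 0.56), from 2029 to 2529 UMIs, and Ccl7 (0.43, 0.38 to 0.47), from 7991 to 9643. The lowest ratios were those of Ccl1 (−0.84, −1.03 to −0.66), with 696 and 348 UMIs, and Ccl20 (−0.49, −0.55 to −0.42), with 5266 and 3375. Cxcl16 was at −0.26 (−0.29 to −0.24), with 28149 and 21028 UMIs. Cxcl1 was at −0.14 (−0.19 to −0.09), with 7310 and 5941 UMIs. It turned to 0.71 among cells with under 5% mitochondrial UMIs. Cxcl12, with 4839 and 4682 UMIs (0.11, 0.05 to 0.17), and Ccl2, with 23523 and 21962 (0.06, 0.03 to 0.08), lay near 0, and each changed sign in at least 1 alternative. The median over the 9 genes was 0.06, against 0.10 over all genes.

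The 9 chemokines fell into broadly detected genes and genes held by a few cells. In the control library 5 cells held 57.5% of Ccl1 UMIs, 29.2% of Ccl20, 26.8% of Cxcl2, 17.5% of Cxcl1, 13.8% of Ccl7 and 9.62% of Ccl2. In the induced library the same shares were 82.5%, 32.3%, 36.5%, 25.2%, 15.1% and 12.6%. By contrast 5 cells held 3.35% and 4.74% of Cxcl12, 2.09% and 2.08% of Cxcl14, and 0.778% and 1.10% of Cxcl16 UMIs. The median over all genes with at least 200 UMIs was 2.41% in control and 2.67% in induced. The highest 1% of cells held at least 50% of the UMIs for 5 of the 9 genes in control and 6 of 9 in induced, the added gene being Ccl2 (47.3% and 51.4%). Over all genes with at least 200 UMIs that share of genes was 4.48% in control and 4.78% in induced.

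**Figure D1:**
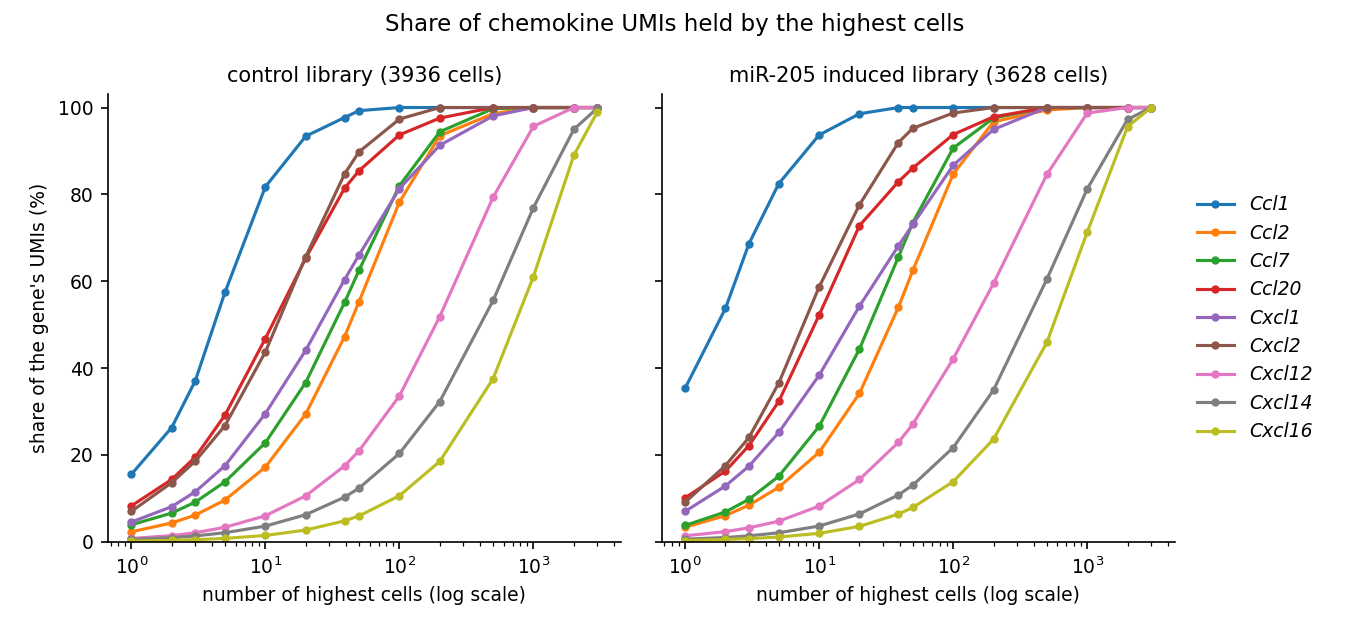
Share of the UMIs of each chemokine (vertical axis, percent) held by its highest cells (horizontal axis, number of cells on a log scale), in the control library on the left and the induced library on the right, with 1 coloured line per gene. The line of Ccl1 reaches 57.5% and 82.5% at 5 cells, while that of Cxcl16 is at 0.778% and 1.10%.

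The proximal promoters of Cxcl1, Cxcl2, Ccl20 and Cxcl14 are shown because the first 3 were held by few cells and Cxcl14 by most. Each runs from 250 bases before to 50 bases from the transcription start given for it, 5′ to 3′ on the strand of the gene, from RefSeq on GRCm38.p6. For Cxcl14 that start lies inside the annotated gene, whose 5′ end is at 56296811. Its window therefore does not reach the bases before that end, unlike the windows of Cxcl1, Cxcl2 and Ccl20. Capitals mark matches to the NF-κB consensus on either strand.
Cxcl1: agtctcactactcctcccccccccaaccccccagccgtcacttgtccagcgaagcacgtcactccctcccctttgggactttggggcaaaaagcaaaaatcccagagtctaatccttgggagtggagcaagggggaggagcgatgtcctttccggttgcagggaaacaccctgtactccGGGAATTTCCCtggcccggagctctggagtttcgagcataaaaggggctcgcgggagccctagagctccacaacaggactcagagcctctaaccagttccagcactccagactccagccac
Cxcl2: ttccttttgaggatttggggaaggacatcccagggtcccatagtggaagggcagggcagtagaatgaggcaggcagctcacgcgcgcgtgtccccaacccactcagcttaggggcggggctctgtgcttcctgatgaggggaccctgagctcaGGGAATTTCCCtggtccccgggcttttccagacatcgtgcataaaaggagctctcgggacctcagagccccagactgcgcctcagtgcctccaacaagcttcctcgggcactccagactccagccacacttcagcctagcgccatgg
Ccl20: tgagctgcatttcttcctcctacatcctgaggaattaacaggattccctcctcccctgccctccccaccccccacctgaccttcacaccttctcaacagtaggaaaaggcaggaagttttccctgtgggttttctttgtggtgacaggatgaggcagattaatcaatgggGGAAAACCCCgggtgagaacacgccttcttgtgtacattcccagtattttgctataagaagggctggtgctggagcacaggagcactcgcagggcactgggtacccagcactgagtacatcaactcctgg
Cxcl14: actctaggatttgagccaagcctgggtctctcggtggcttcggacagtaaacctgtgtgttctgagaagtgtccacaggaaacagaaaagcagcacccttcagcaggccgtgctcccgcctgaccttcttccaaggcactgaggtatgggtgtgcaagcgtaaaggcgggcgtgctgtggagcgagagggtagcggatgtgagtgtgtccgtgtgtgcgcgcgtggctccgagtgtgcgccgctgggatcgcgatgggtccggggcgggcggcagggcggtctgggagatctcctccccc
These windows are chr5:90890995-90891294 (plus strand), chr5:90903649-90903948 (plus strand), chr1:83116516-83116815 (plus strand) and chr13:56296502-56296801 (minus strand). Cxcl1 and Cxcl2 are neighbours on chromosome 5, 10777 bases apart, and their matches read the same 11 letters, made of overlapping matches on both strands. The match of Cxcl1 began 71 bases and that of Cxcl2 97 bases before the start, and the match of Ccl20 began 80 bases before it.

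Of the 6 chemokines with an entry in the promoter table, 4 held an NF-κB match (Ccl1, Ccl20, Cxcl1 and Cxcl2) and 2 did not (Cxcl12 and Cxcl14). Over 27025 promoters of the same length, 8.18% held one. No AP-1 match (TGANTCA, both strands) or TATA match (TATAAA, both strands) stood in any of the 6 windows, and 7.93% and 14.2% of all promoters held these. Ccl2, Ccl7 and Cxcl16 had no entry. The window of Cxcl14 lies inside its annotated gene, so its lack of a match does not cover the bases before the gene. A match is a run of letters only.

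Messenger instability elements and miR-205 seed matches were counted in the longest annotated 3′ untranslated region of each gene (GENCODE vM1). Cxcl1 held 6 and Cxcl2 held 7 copies of TATTTAT, the core of AU-rich elements that mark messengers for decay. Ccl20 and Cxcl12 held 1 copy each, and the other 5 genes held none. Over 19294 genes, 24.7% held at least 1 copy and 8.33% held 2 or more. The mature sequence of the induced microRNA, mmu-miR-205-5p (chr1:193507503-193507524, minus strand, GRCm38.p6), is printed with its seed, bases 2 to 8, in capitals. Ccl7 and Cxcl12 were the 2 genes of the 9 with a match to this seed, against 10.7% of all genes. Their untranslated regions were 435 and 5188 bases long, against a median of 935 over all genes. The shares over all genes were not matched for length. The sites of Ccl7 and Cxcl12 are printed with the match in capitals.
mmu-miR-205-5p: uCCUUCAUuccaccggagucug
Ccl7 site: ctttgttcttgtattATGAAGGg
Cxcl12 site: cacacctacaatcccATGAAGGc
Over all kept cells the log2 ratio was 0.43 for Ccl7 and 0.11 for Cxcl12. Clusters differed in direction, with Ccl7 at −0.91 in cluster 1, −0.66 in cluster 5 and 1.97 in cluster 2, and Cxcl12 at −0.57 in cluster 4 and 0.60 in cluster 2. Whether miR-205 acts on either site was not tested.

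Ccl2 and Ccl7, ligands of the monocyte receptor Ccr2, lie 8259 bases apart on chromosome 11. Cluster 1, rich in keratin 18, keratin 8 and Wfdc18 and not named by the fixed markers, held 49.7% of control and 30.7% of induced Ccl2 UMIs. Fibroblast-like cells held 13.6% and 32.2% and the upper hair follicle-like cluster 5 held 18.3% and 9.59%. Of Ccl7 UMIs, fibroblast-like cells held 44.3% and 70.9% and cluster 1 held 40.7% and 13.5%. In fibroblast-like cells Ccl2 stood at 2306 CPM in control and 4098 in induced (log2 ratio 0.83, 0.77 to 0.89). Ccl7 stood there at 2541 and 3964 (0.64, 0.58 to 0.70). Without the 5 highest cells of each library these ratios were 0.96 and 0.74. In cluster 1 both genes were lower in induced. Ccl2 went from 1986 to 1527 CPM (−0.38, −0.42 to −0.34) and Ccl7 from 553 to 295 (−0.91, −1.0 to −0.81). The upper hair follicle-like cluster 5 had Ccl2 at 1262 and 676 CPM (−0.90, −0.98 to −0.83). The epithelial cluster 2, led by Cacna2d2 and Ntrk2, went the other way, with Ccl2 at 133 and 588 (2.14, 2.01 to 2.28) and Ccl7 at 42.3 and 166 (1.97, 1.73 to 2.22). In cluster 2 the 5 highest cells held 53.8% and 56.0% of Ccl2 UMIs, and the ratio without them was 2.09. For Ccl7 in cluster 2 the ratio was −0.38 at clustering resolution 0.4, where the cells are grouped more coarsely.

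Several large Ccl2 ratios rested on a few cells. The highest Ccl2 level of all, 10303 CPM in control and 7657 in induced, was in cluster 19 with 28 and 41 cells, where 5 cells held 79.7% and 93.4% of the UMIs. In cycling-like cluster 14 Ccl2 stood at 215 and 797 CPM (1.89), but 5 cells held 92.3% of the induced UMIs and the ratio without them was −0.14. In cluster 9, led by Pthlh and Col4a4, Ccl2 had 14 control and 201 induced UMIs (3.33, 2.60 to 4.28), of which 5 induced cells held 92.5%. In sebaceous gland-like cells it had 254 and 10 UMIs (−5.08, −6.23 to −4.25), of which 5 control cells held 94.1%. Without the 5 highest cells these ratios were 0.80 and −2.00. The highest single cell of the control library carried 543 Ccl2 UMIs, 3.86% of all its UMIs, and lay in cluster 5. The highest of the induced library carried 735, or 5.06%, and lay in cluster 19. It also had one of the highest doublet scores. For Ccl7, all 5 highest induced cells were fibroblast-like (246 to 363 UMIs), and 19 of the 20 highest were. In control 11 of the 20 highest were fibroblast-like and 9 lay in cluster 1. Ccl2 and Ccl7 shared 6 of their 20 highest cells in control and 5 in induced. Of cells with a Ccl7 UMI, 57.2% in control and 50% in induced had a Ccl2 UMI, against 21.2% and 17.2% of all cells. Deeper cells enter both counts more often.

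Thinned to 5000 UMIs per cell, 14.3% of 3632 control cells and 11.8% of 3300 induced cells had a Ccl2 UMI (exact intervals 13.2 to 15.5% and 10.7 to 12.9%). The thinning left out 304 control and 328 induced cells that were shallower. Without thinning the shares were 21.2% and 17.2%. In cluster 13, which had the lowest control level of Ccl2 among clusters of at least 100 cells per library, the thinned shares were 2.21% and 4.00% at medians of 11532.5 and 12976 UMIs per cell, which can be read as background. For Ccl7 the thinned shares were 9.36% (8.43 to 10.4%) and 8.45% (7.53 to 9.46%). Cluster 6, with the lowest control level of Ccl7 by the same rule, had 2.34% and 5.24% at medians of 15826.5 and 16508.5 UMIs per cell. In the IFE basal-like cluster 0 they were 1.97% and 1.71% at medians of 16586 and 17375.

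**Figure D2:**
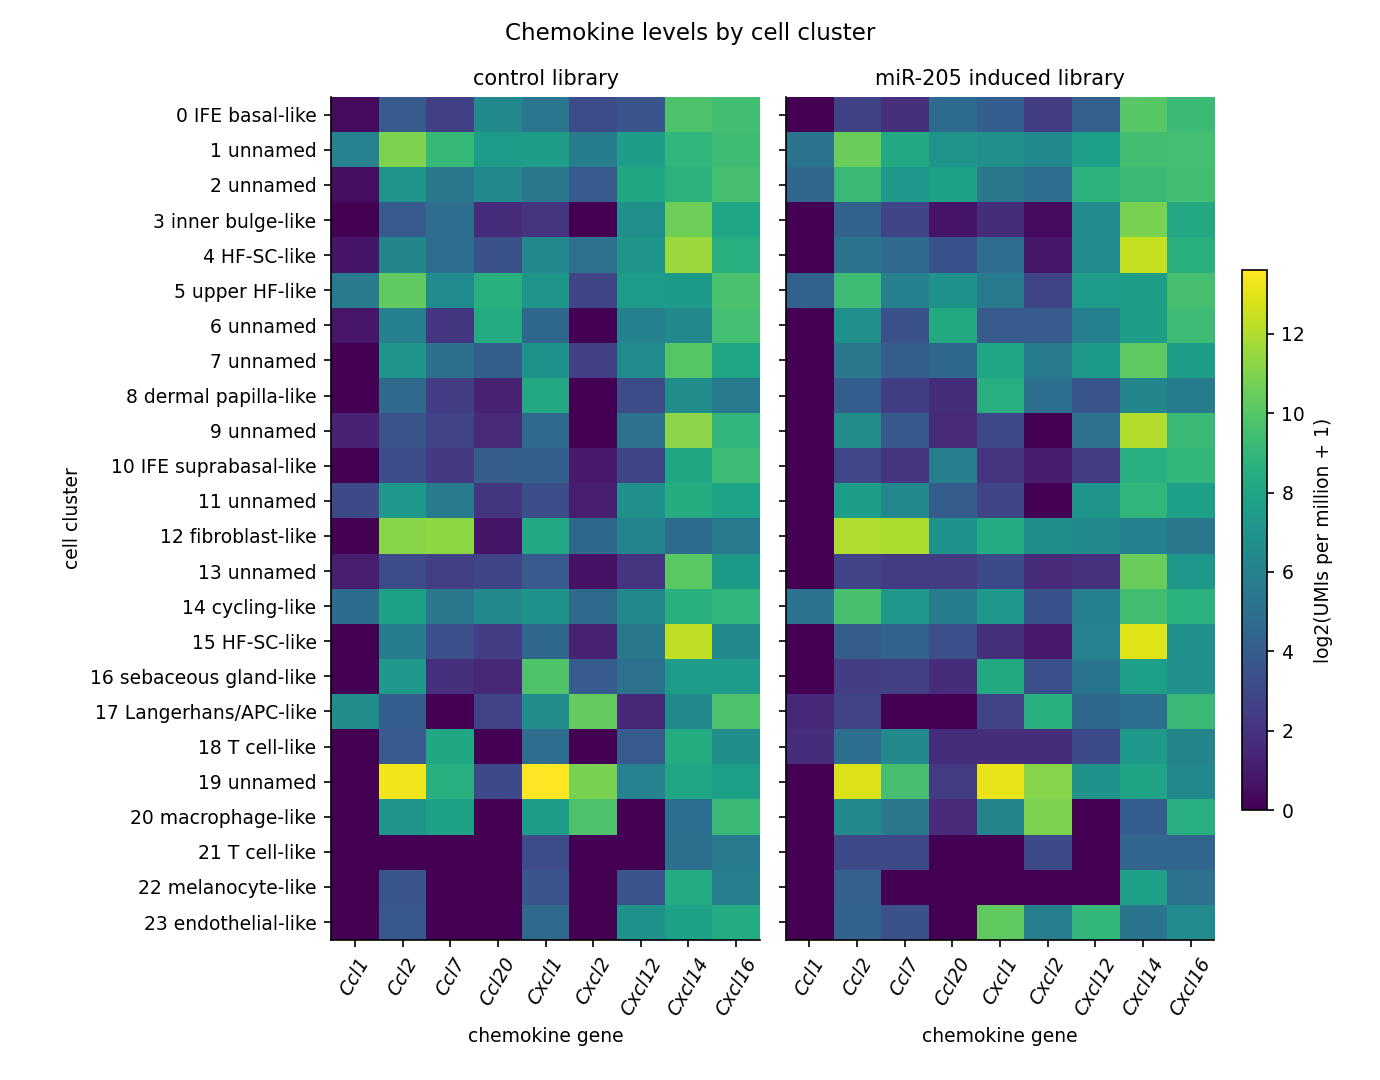
Level of each chemokine (columns) in each of the 24 cell clusters (rows) in the control library on the left and the induced library on the right, as log2 of CPM plus 1. Clusters without a name are marked as unnamed after their number. Ccl2 and Cxcl1 are brightest in cluster 19, Ccl7 in fibroblast-like cells and Cxcl14 in the HF-SC-like clusters (named for hair follicle stem cell markers) in both panels.

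Ccl20, the ligand of Ccr6 that draws Langerhans cell precursors and T cells to epithelium, was an epithelial transcript in both libraries. In control clusters 5, 6, 1 and 0 held 25.5%, 23.6%, 19.7% and 15.9% of its UMIs. In induced clusters 6, 2, 1 and 5 held 30.5%, 18.4%, 17.2% and 11.3%, and cluster 0 held 4.77%. The interfollicular epidermis (IFE) basal-like cluster 0 had 836 control and 161 induced UMIs, or 87.9 and 26.1 CPM (log2 ratio −1.75, −2.01 to −1.51). In this cluster 5 cells held 81.0% and 68.9% of the UMIs, and the ratio without them was −1.03. In the upper hair follicle-like cluster 5 the levels were 393 and 122 CPM (−1.69, −1.86 to −1.52). Cluster 6, led by Flg2, Lor and Cnfn, stood at 330 and 309 (−0.09, −0.21 to 0.03), where counting error alone spans 0. Higher levels in induced were seen in the IFE suprabasal-like cluster 10, from 15.1 to 54.6 CPM (1.84, 1.39 to 2.33), and in cluster 2, from 84.6 to 223 (1.40, 1.21 to 1.58). In cluster 2 the ratio was −0.33 when the listed genes were kept among those used for clustering. Fibroblast-like cells had 1 control and 210 induced Ccl20 UMIs (ratio 6.82, 4.91 to 12.72). Of these, 209 were in 1 induced cell with a high doublet score, and without the highest-scoring doublets the ratio was −0.26. Thinned shares of cells with a Ccl20 UMI were 5.59% (4.86 to 6.39%) in control and 4.33% (3.66 to 5.08%) in induced. In fibroblast-like cells they were 0.962% and 1.5%, at medians of 12278 and 11639.5 UMIs per cell.

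Ccl1, the ligand of Ccr8, was found in 55 control and 25 induced cells. Its highest cells carried 108 UMIs in control and 123 in induced, both in cluster 1. Of its 20 highest cells, 13 in control and 9 in induced lay in cluster 1. In cluster 1 it had 384 and 165 UMIs, or 65.3 and 37.3 CPM (−0.80, −1.08 to −0.54), and 1 cell held most of the induced UMIs. In Langerhans or antigen-presenting-like cells 52 control UMIs in 3 cells stood against 1 induced UMI (ratio −5.13, −11.03 to −3.16). Over all cells the ratio without the 5 highest cells was −2.11 (−2.54 to −1.72). The inner bulge-like cluster 3 had 0 Ccl1 UMIs in both libraries. Of the 20 highest Ccl1 cells, 6 were also among the 20 highest for Ccl2 in each library.

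Cxcl1 and Cxcl2, ligands of the neutrophil receptor Cxcr2, had their highest levels in cluster 19 in both libraries. Cxcl1 stood at 12521 CPM in control and 9199 in induced (−0.44, −0.54 to −0.35) in cluster 19, a small cluster of 28 and 41 cells that could not be named. High doublet scores were given to 25.0% of control and 14.6% of induced cells of cluster 19, against 3.33% and 3.22% of all kept cells. Without them the Cxcl1 ratio in cluster 19 was −1.23. Among cells with under 5% mitochondrial UMIs it was 2.83, from 5 control and 14 induced cells, so that no direction can be given for this cluster. In each library 8 of the 20 highest Cxcl1 cells belonged to cluster 19.

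Cxcl1 was lower in induced in 14 of the 18 clusters with at least 20 UMIs. Of the 18, 8 were at least 2-fold lower and 0 at least 2-fold higher. Over all gene and cluster pairs the background was 2.59% lower and 3.61% higher. In sebaceous gland-like cells Cxcl1 stood at 941 and 310 CPM (−1.60, −1.74 to −1.47), and at −2.46 without the 5 highest cells. The sign turned among cells with under 5% mitochondrial UMIs (1.25), which left 11 of 87 control and 12 of 112 induced cells of this cluster. In the upper hair follicle-like cluster 5 it stood at 145 and 46.9 (−1.63, −1.91 to −1.36). The HF-SC-like cluster 4 had 91.9 and 28.2 (−1.70, −2.11 to −1.32), but 5 cells held 84.5% and 92.6% of these UMIs. The IFE basal-like cluster 0 had 39.1 and 15.9 (−1.30, −1.64 to −0.98), spread over 123 and 53 cells with a UMI. The 4 clusters higher in induced were the dermal papilla-like, fibroblast-like and cycling-like clusters and cluster 7, led by Slc38a4, Tagln and Acta2 (128 and 255 CPM, 1.00, 0.80 to 1.20). The dermal papilla-like cluster 8 had 301 and 372 (0.30, 0.06 to 0.55). The median over the 18 clusters was −0.82. Of the 8 clusters, 7 were still at least 2-fold lower without the 5 highest cells of each library. Among the 7, Langerhans or antigen-presenting-like cells then had 2 control and 0 induced UMIs, and macrophage-like cells 1 and 0. These counts are too few to give a direction. Thinned shares of cells with a Cxcl1 UMI were 10.3% (9.33 to 11.3%) and 9.06% (8.10 to 10.1%), with 0% and 2.03% in inner bulge-like cells, at medians of 7849.5 and 7628 UMIs per cell.

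Cxcl2 had high levels in antigen-presenting cells as well as in cluster 19. It stood at 1301 and 397 CPM in Langerhans or antigen-presenting-like cells (−1.71, −1.95 to −1.48) and at 890 and 1914 in macrophage-like cells (1.10, 0.93 to 1.28). Without the 5 highest cells of each library these ratios were −2.31 and 2.41. Those 5 cells held 64.3% and 75.8% of the UMIs in Langerhans or antigen-presenting-like cells and 94.8% and 86.8% in macrophage-like cells. The value of 2.41 thus rests on 20 control and 112 induced UMIs. The shares of cells with a Cxcl2 UMI, thinned, were 65.3% and 35.6% in the first cluster and 24% and 30% in the second. Cluster 19 had 1900 and 2257 CPM (0.25, 0.03 to 0.47), with 94.8% and 98.4% of it in 5 cells. In cluster 6 there were 0 control and 48 induced UMIs, which is at least 18.1-fold higher when the control sum is set to the floor of 3 counts. In dermal papilla-like cells 0 and 38 UMIs gave at least 6.79-fold. The induced UMIs of cluster 6 came from 4 cells and those of the dermal papilla-like cluster from 6. Fibroblast-like cells had 32 UMIs in 2 control cells and 188 in 13 induced cells (2.23, 1.70 to 2.83). Of the 20 highest Cxcl2 cells, 7 in control and 8 in induced had a UMI of the leukocyte gene Ptprc, whereas none of the 20 highest Cxcl1 cells did in either library. Cxcl1 and Cxcl2 nevertheless shared 8 of their 20 highest cells in control and 5 in induced. Of cells with a Cxcl2 UMI, 48.7% and 41.7% had a Cxcl1 UMI, against 16.3% and 12.2% of all cells. Thinned shares of cells with a Cxcl2 UMI were 2.75% (2.25 to 3.34%) and 2.39% (1.90 to 2.97%) over all cells. In inner bulge-like cells no thinned cell had one in either library, which allows shares of up to 2.40% and 1.07% by the exact interval.

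Cells with at least 3 Cxcl1 UMIs were set against the other cells of their cluster in the 11 sets of cluster and library with at least 20 such cells, 7 in control and 4 in induced. Over all genes with at least 20 UMIs, 2.84% to 6.38% were at least 2-fold higher in the high cells of a set, and the median log2 ratio of a set lay between −0.06 and 0.05. Cxcl2 was at least 2-fold higher in 10 of the 10 sets with at least 20 Cxcl2 UMIs, with a median log2 ratio of 5.18. Few cells set some of these values. In control fibroblast-like cells 1 high cell held 31 of the 32 Cxcl2 UMIs, and in induced cluster 7, 2 cells held 91.2% of 136. In control fibroblast-like and induced dermal papilla-like cells (38 UMIs) the other cells held 0. Those 2 sets met the minimum of 20 UMIs through the high cells alone. Ccl2 was higher in 9 of 10 sets (median 1.51) and Ccl7 in 7 of 8 (1.07). Ccl20 was at least 2-fold higher in 5 of 7 sets and at least 2-fold lower in the other 2, but single cells set several of these values. In control cluster 0, 1 cell held 435 of the 468 Ccl20 UMIs of the high cells. In control cluster 14, 1 cell with a high doublet score held 247 of 250. In induced fibroblast-like cells, a set with a lower value, 1 such cell held 209 of the 210 UMIs of the other cells. Cxcl14 was higher in 4 of 11 sets and Cxcl16 in 8 of 11, with medians of −0.41 and 0.26. The 291 cells of the 11 sets held 0 Ptprc UMIs. None of the sets lay in a leukocyte-like cluster, and the other cells of a set held at most 3 Ptprc UMIs. The 0 therefore tells nothing about leukocytes. The NF-κB feedback genes Nfkbia and Tnfaip3 were each higher in 9 of 11 sets (medians 0.33 and 0.59) and the prostaglandin synthase gene Ptgs2 in 6 of 11 (0.34), while Fos, an immediate early gene of dissociation stress, was lower in 9 of 11 (−1.49). The median over 24 dissociation stress genes was below 0 in 9 of the 11 sets. That over the NF-κB list was above 0 in all 11. In 5 of the 11 sets the high cells had the larger share of high doublet scores, for example 14.3% against 1.83% in control cluster 0 and 22.7% against 6.35% in control cluster 14. In each of the 11 sets they had a higher median UMI count, and the part of depth and doublets in these ratios was not tested. These are cells of 1 library each and not replicates.

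**Figure D3:**
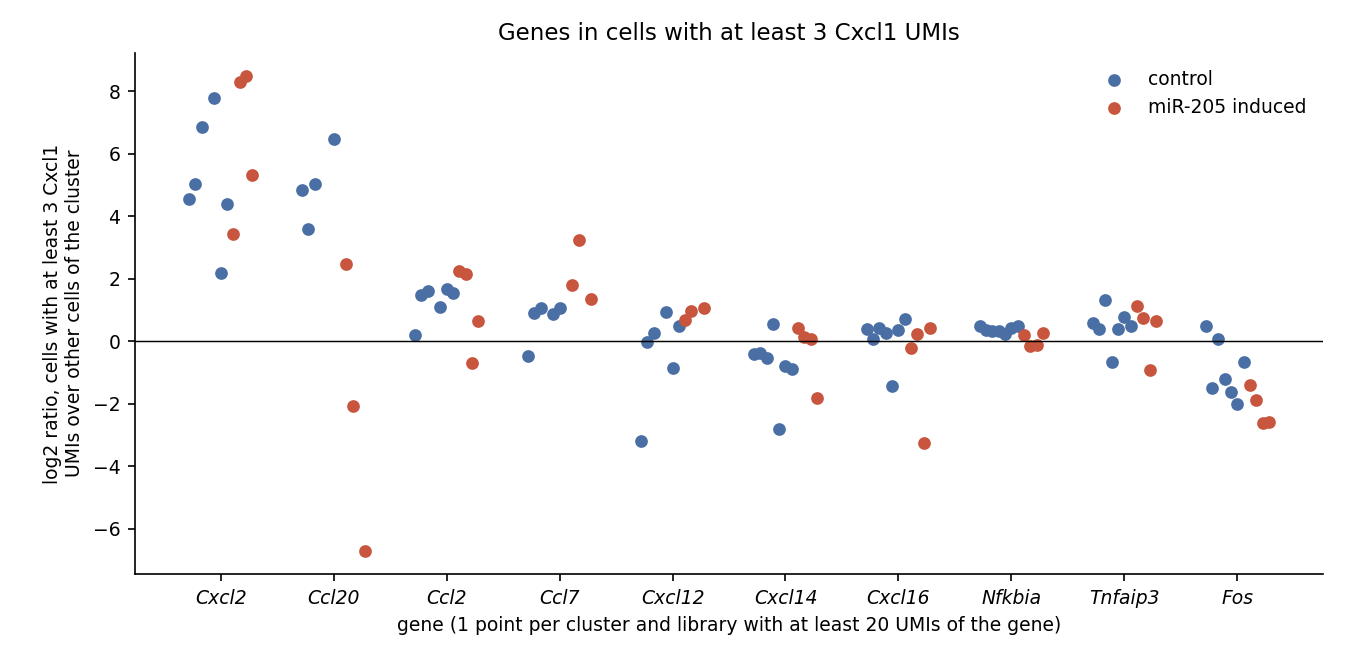
Log2 ratio of CPM between cells with at least 3 Cxcl1 UMIs and the other cells of the same cluster (vertical axis) for 10 genes (horizontal axis), with 1 point per cluster and library that held at least 20 UMIs of the gene, control in blue and induced in red. All 10 points of Cxcl2 lie above 1, while 9 of the 11 points of Fos lie below 0.

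Cxcl12, the ligand of Cxcr4 and of the scavenger receptor Ackr3, differed by less than 2-fold in each of the 16 clusters with at least 20 UMIs. Its ratios ran from −0.57 in HF-SC-like cluster 4 to 0.87 in cluster 19. The largest source was cluster 2, at 278 and 423 CPM (0.60, 0.49 to 0.72). There the thinned share of cells with a UMI was 50.4% in control and 65.0% in induced. Clusters 1 and 5 stood at 189 and 208 (0.14, 0.02 to 0.27) and at 176 and 179 (0.02, −0.15 to 0.19). Cluster 7 was higher in induced, from 97.9 to 171 (0.80, 0.57 to 1.04), and cluster 4 lower, from 138 to 92.8 (−0.57, −0.82 to −0.33). Fibroblast-like cells, a usual source of this chemokine in dermis, stood at 66.1 and 89.3 (0.43, 0.05 to 0.82). Of the 20 highest Cxcl12 cells, 19 in control and 18 in induced had at least 10 UMIs of the basal keratin genes Krt14 or Krt5. Thinned shares over all cells were 21.9% (20.6 to 23.3%) and 21.1% (19.7 to 22.6%), and no thinned cell of cluster 13 had a UMI, which allows up to 2.68% and 3.62%.

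Cxcl14, made constitutively by skin epithelium, had its highest levels in the HF-SC-like clusters in both libraries. In HF-SC-like cluster 15 it stood at 5065 CPM in control and 8013 in induced (0.66, 0.60 to 0.72). In HF-SC-like cluster 4 it stood at 3033 and 5404 (0.83, 0.79 to 0.87), and in cluster 9 at 2457 and 4147 (0.75, 0.70 to 0.81). Next came inner bulge-like cells, at 1553 and 1900 (0.29, 0.22 to 0.37). In the IFE basal-like cluster 0 it stood at 913 and 1078 (0.24, 0.19 to 0.29), above the 277 and 365 of the IFE suprabasal-like cluster 10 (0.40, 0.27 to 0.53). The upper hair follicle-like cluster 5 was at 168 and 199 (0.25, 0.08 to 0.41). The order of clusters was much the same in both libraries (Pearson r = 0.97 over 22 clusters on the log2 scale, a description over clusters that share 2 libraries).

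Cxcl14 was higher in the induced library in 16 of the 21 clusters with at least 20 UMIs, or 76.2%, with a median ratio of 0.35. The 5 clusters below 0 were the dermal papilla-like, Langerhans or antigen-presenting-like, macrophage-like and melanocyte-like clusters and cluster 19, each with under 200 UMIs over both libraries. As background, among 6863 genes with values in at least 15 clusters, 7.82% were higher in at least 80% of their clusters and 6.43% lower in at least 80%. Cxcl14 thus fell short of that mark. At least 2-fold higher were 2 clusters, cluster 6 (86.3 and 191 CPM, 1.15, 0.95 to 1.35) and fibroblast-like cells, the latter on 36 and 98 UMIs. In the 3 clusters with the highest levels the 5 highest cells held under 22% of the UMIs, and leaving them out gave 0.78, 0.85 and 0.79. In 2 clusters the ratio changed sign in an alternative, −0.17 in inner bulge-like cells with under 5% mitochondrial UMIs and −0.03 in cluster 7 as a mean over cells. Thinned shares of cells with a Cxcl14 UMI were 67.3% (65.8 to 68.9%) and 70.8% (69.2 to 72.3%), against 9.62% and 12.0% in fibroblast-like cells. The make-up of the libraries differed. Inner bulge-like cells were 4.32% of control and 10.5% of induced cells and the IFE basal-like cluster 14.4% and 9.81%. With clusters weighted as in the control library the ratio was 0.54 in place of 0.70.

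**Figure D4:**
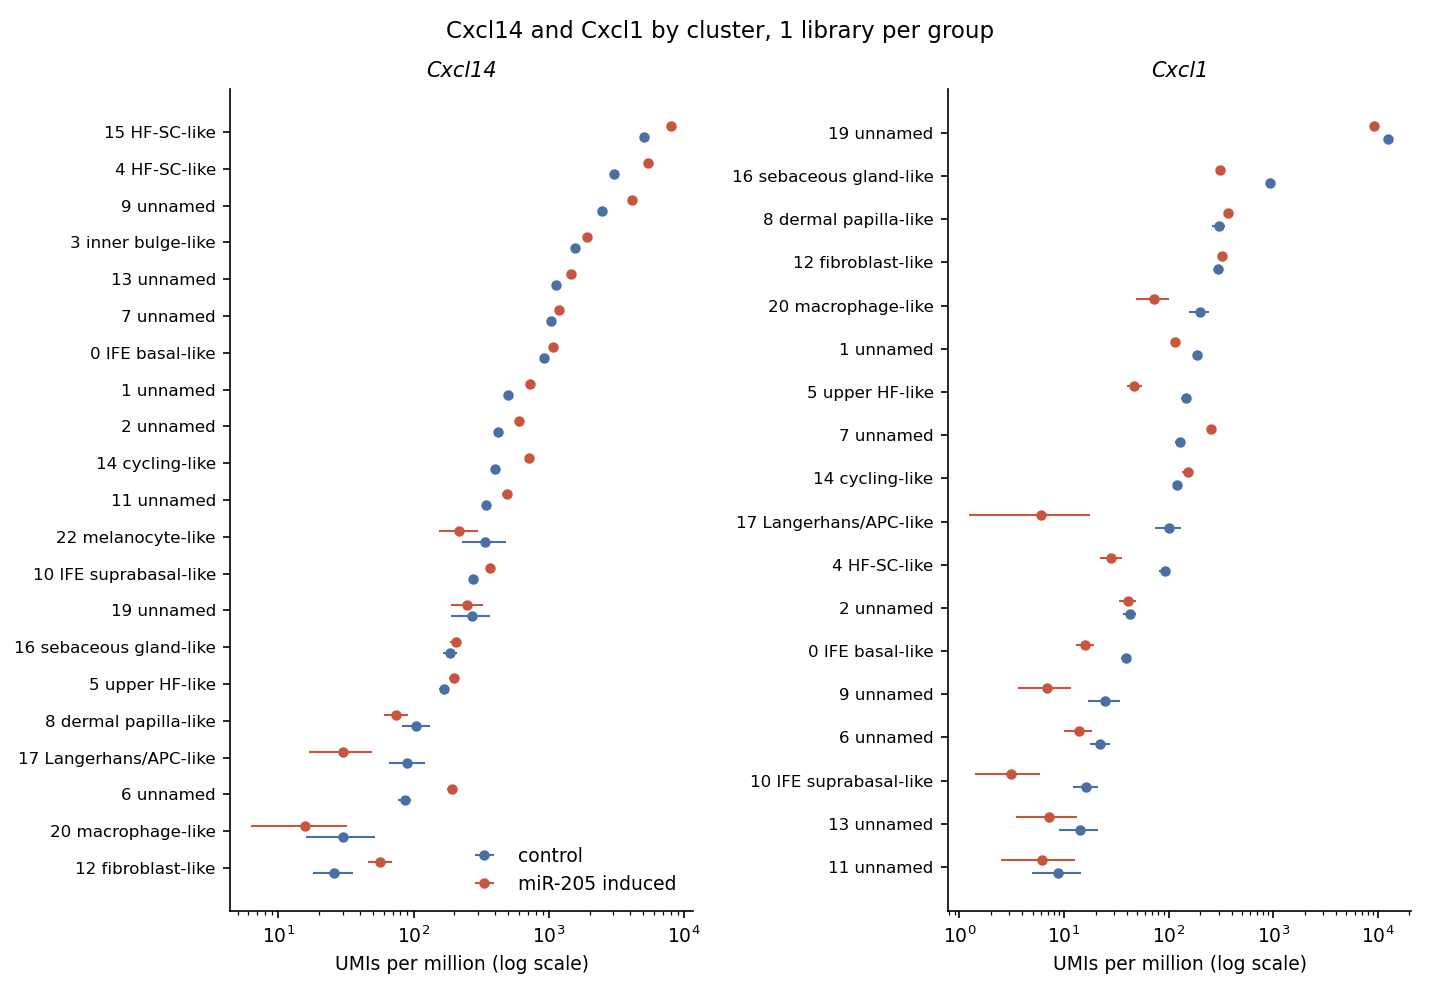
Level of Cxcl14 (left) and Cxcl1 (right) in CPM (horizontal axis, log scale) in each cluster with at least 20 UMIs of the gene (vertical axis, ordered by the control level), control in blue and induced in red. Bars are exact 95% Poisson intervals, which cover counting error only. Cxcl14 is higher in induced in 16 of 21 clusters, and Cxcl1 is lower in induced in 14 of 18.

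Cxcl16, a membrane-bound chemokine that is shed by Adam10 and binds Cxcr6, was detected in most keratinocytes. Its ratios ran from −1.34 to 0.38 over 20 clusters, with a median of −0.20. In upper hair follicle-like cells it stood at 833 and 776 CPM (−0.10, −0.18 to −0.02), in cluster 2 at 766 and 731 (−0.07, −0.15 to 0.01) and in the IFE basal-like cluster 0 at 707 and 615 (−0.20, −0.26 to −0.14). Langerhans or antigen-presenting-like cells had 901 and 601 (−0.58, −0.80 to −0.37) and macrophage-like cells 571 and 390 (−0.55, −0.84 to −0.27). Levels were above control in cluster 1, at 678 and 756 (0.16, 0.09 to 0.22), and in cluster 9, at 496 and 581 (0.23, 0.09 to 0.37). The sole 2-fold difference was in cluster 19 on 29 and 18 UMIs, where the ratio was 0.71 without the 5 highest cells. Thinned to equal depth, 78.0% (76.6 to 79.4%) of control and 68.0% (66.3 to 69.6%) of induced cells had a Cxcl16 UMI, against 10.6% and 6.02% of fibroblast-like cells. With clusters weighted as in the control library the ratio over all cells was −0.11 in place of −0.26.

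Counted over the 9 genes, 140 gene and cluster pairs had at least 20 UMIs. Of these, 24 (17.1%) were at least 2-fold lower and 21 (15%) at least 2-fold higher in the induced library, against 2.59% and 3.61% of all gene and cluster pairs. The median over the pairs was −0.06, against 0.02 over all pairs. In 23 of these 45 pairs, 5 cells held at least 90% of the UMIs of the library with the higher level. Without the 5 highest cells of each library 23 of the 45 pairs stayed past 2-fold in the same direction, 12 kept the direction below 2-fold and 10 turned. The pairs that stayed were those of Cxcl1 (7 of 8), Ccl20 (5 of 6), Cxcl2 (5 of 9), Ccl2 (3 of 8), Ccl7 (2 of 7) and Ccl1 (1 of 3). The minimum of 20 UMIs was not applied again to the UMIs left. Ccl1 in cluster 5 stayed on 2 control and 0 induced UMIs, and Cxcl2 in cluster 4 on 1 and 0. For Cxcl2, cluster 6 kept its direction and cluster 7 turned with 0 UMIs left in both libraries. There the sign is set by the UMI totals alone, so these counts do not show how robust the pairs are. Cxcl12 had 0 pairs past 2-fold.

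Genes whose control levels followed each chemokine most closely over the 22 clusters are given with Pearson's r of log2(CPM + 1) in control and then in induced. These are descriptions over clusters that share a library, and they carry no test. Ccl2 was followed by Ccl7 (0.84 and 0.91), Lif (0.83 and 0.78) and Dtx4 (0.80 and 0.58). Ccl7 was followed by Ccl2, Casp12 (0.79 and 0.65) and the collagenase gene Mmp2 (0.75 and 0.67). For Ccl20 they were Mill1 (0.82 and 0.65), Ifnlr1 (0.81 and 0.69) and Gm16098 (0.80 and 0.51). For Cxcl1 they were Cnp (0.80 and 0.66), Col4a1 (0.78 and 0.72) and Adamts4 (0.78 and 0.58). For Cxcl2 they were Picalm (0.85 and 0.49), Slc15a3 (0.82 and 0.68) and the antigen-presentation gene H2-DMa (0.81 and 0.52). Cxcl12 was followed by Vangl1 (0.86 and 0.72), Gstm5 (0.84 and 0.71) and Rnf217 (0.84 and 0.59). Cxcl14 was followed by Eml2 (0.90 and 0.81), the laminin gene Lama5 (0.87 and 0.81) and Egfl6 (0.87 and 0.81). Cxcl16 was followed by the tight junction gene Cldn1 (0.91 and 0.90), Akirin1 (0.86 and 0.60) and Serinc2 (0.86 and 0.76). For Ccl1 the 3 were Il18r1 (0.72 and 0.50), Ptcra (0.72 and −0.14) and Zmynd15 (0.71 and 0.53).

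Chemokine receptors, among them those of the 9 genes, were sparse. Ccr2, the receptor of Ccl2 and Ccl7, had 54 control and 227 induced UMIs over all cells (log2 ratio 2.22, 1.79 to 2.68), mostly in T cell-like cluster 18 and macrophage-like cells. Cxcr6, the receptor of Cxcl16, had 249 and 662 (1.57, 1.35 to 1.78). Within T cell-like cluster 18 it stood at 1300 and 1336 CPM (0.03), while that cluster held 17 and 77 cells. Cxcr4 had 128 and 246 (1.10, 0.79 to 1.42). Cxcr3 (2.76), Xcr1 (1.49) and Ccr4 (1.03) also passed 2-fold. These 6 were all the receptors that did among 14 with at least 20 UMIs, with 0 lower. Over all genes 6.39% were at least 2-fold higher and 1.09% at least 2-fold lower. The median of the 14 receptors was 0.96. The receptors of Cxcl1 and Cxcl2, of Ccl20 and of Ccl1 had under 20 UMIs, with 10 and 7 for Cxcr2, 9 and 8 for Ccr6, and 1 and 7 for Ccr8. The scavenger receptors Ackr3, which clears Cxcl12, and Ackr4 had 608 and 1023 UMIs (0.91) and 557 and 603 UMIs (0.27). In dermal papilla-like cells Ackr3 had 4 and 79 UMIs (3.24).

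Among 18 other chemokines with at least 20 UMIs, 7 were at least 2-fold higher and 2 at least 2-fold lower over all cells. The shares over all genes were 6.39% and 1.09%. The higher chemokines were Ccl3 (2.76), Ccl4 (6.55, 4.63 to 12.45, on 1 and 126 UMIs), Ccl5 (1.97), Ccl6 (2.54), Ccl9 (1.00), Xcl1 (1.16) and Cxcl10 (1.92). These are mostly products of T cells and myeloid cells, and Ccl5 in T cell-like cluster 18 had 38 and 545 UMIs. The 5 highest induced cells held 87% of Ccl3, 77.8% of Ccl4, 63.6% of Ccl5 and 82.6% of Ccl6 UMIs. For Ccl9, Xcl1 and Cxcl10 they held 50.1%, 57.7% and 30.1%. Without the 5 highest cells of each library all 7 stayed at least 2-fold higher, but Ccl3 and Ccl4 had UMIs in 1 control cell each. Cxcl10, an interferon-induced ligand of Cxcr3, was also found in epithelial clusters, with 10 and 123 UMIs in the IFE basal-like cluster 0. The lower chemokines were Ccl8 (−1.10) and Ccl17 (−1.60, on 45 and 13 UMIs). Without the 5 highest cells of each library these ratios were −0.26 and −4.49. Ccl27a, the keratinocyte ligand of Ccr10, stood at 1201 and 1108 CPM (−0.12), Ccl11 at 19.9 and 24.8 (0.32) and Ccl8 at 11.3 and 5.25.

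Of the 23 NF-κB targets and inflammatory cytokines, 1 passed 2-fold, Csf3 (2.10, with 86.4% and 92.7% of UMIs in 5 cells). Over all genes 6.39% were at least 2-fold higher and 1.09% lower. The median of the 23 was 0.01, with 11 genes below 0. Ier3 stood at 1530 and 1591 CPM (0.06), Nfkbia at 1412 and 1834 (0.38) and Nfkb1 at 363 and 355 (−0.03). Of 24 dissociation stress genes, 0 passed 2-fold and 2 were below 0, with a median of 0.26. Hspb1 stood at 3729 and 3768 (0.02), Hspa8 at 1816 and 2101 (0.21) and Jun at 1255 and 1341 (0.10). The part of dissociation in the chemokine levels was not tested. Of the 4 chemokine proteases, Adam10 (−0.08) and Adam17 (−0.07) lay near 0, and Dpp4, which trims Cxcl12, had 227 and 372 UMIs (0.87, 0.63 to 1.11). Mmp9 had 72 and 102 (0.66, 0.21 to 1.11).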

How the data were processed

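Per the labels, the authors counted unique molecular identifiers with Cell Ranger (3.0.1 in the matrix headers, genome mm10), and the deposited values are raw whole-number counts per gene and barcode with no normalization. Cells with more than 200 and fewer than 5000 genes and less than 10% mitochondrial UMIs were kept, as the study states. Doublets were not removed. Scrublet (scanpy 1.11.5) set a threshold that marked 4 barcodes per library and was not used, and an alternative left out the 165 control and 145 induced barcodes with the highest scores. The libraries were integrated in Seurat 5.3.0 (R 4.3.3) with 2000 variable genes, 30 dimensions and resolution 0.8, with all listed chemokines, receptors, NF-κB, stress and protease genes withheld from the variable genes. The rule that turned fixed markers into cluster names was set after the clusters were seen. A cluster was named where at least 3 markers of a class were raised 2-fold and its leading genes did not point to another class.

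UMIs were summed per library and cluster. Ratios used a pseudocount of 0.5 UMIs and genes with at least 20 UMIs. Intervals are exact at 95%. The ratio was checked on simulated counts. The 9 genes and the gene lists were chosen with earlier results of these data known. Each chemokine, the 3 genes most like it, and list genes past 2-fold or among the 3 highest of their list in control were named. Promoters and miR-205 come from RefSeq (GRCm38.p6) and untranslated regions from GENCODE vM1. Ccl19 and Ccl21a, with 2 feature rows each, were not used. Protein sequences were not analysed here. The alternatives changed the filter, doublets, scaling, weights, clustering, UMI minimum and highest cells. The reweighting of clusters was added after seeing the data. A split of cluster 19 by marker genes is not reported here.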

Additional observations from a re-analysis of the deposited data

Results flagged for a closer look

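Several chemokines pointed opposite ways in different clusters with 1 library per group, and the difference between clusters was not tested. Ccl2 had a log2 ratio of −5.08 in sebaceous gland-like cells and 3.33 in cluster 9, led by Pthlh and Col4a4. Ccl20 was at −1.75 in the IFE basal-like cluster 0 and at 6.82 in fibroblast-like cells, where 1 cell held 209 of the 210 induced UMIs. Cxcl2 was at −1.71 in Langerhans or antigen-presenting-like cells and at 2.23 in fibroblast-like cells.

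The 609 control and 636 induced barcodes outside the filter also held chemokine UMIs, and 5 genes stood higher in the induced library beyond counting error. The log2 ratio there was 0.64 for Ccl2, 0.53 for Ccl7, 1.72 for Ccl20, 0.60 for Cxcl12 and 0.78 for Cxcl14. Ccl1 was at 0.11 (−0.76 to 0.97). Lower there were Cxcl1 (−1.07), Cxcl2 (−0.89) and Cxcl16 (−0.15). In the kept cells Ccl20 was at −0.49 and Cxcl2 at 0.47, both opposite in sign.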

How the results depend on the processing

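Over 97 results and their alternatives, 535 of 780 values stayed within the counting interval of the reported one, 236 moved beyond it and 9 changed sign in a pair past 2-fold, counted over the 9 genes, the pair counts and the pairs with at least 200 UMIs. For log2 ratios over all kept cells, a limit of 5% mitochondrial UMIs gave 0.44 for Ccl2, 0.70 for Ccl7, −0.77 for Ccl20, 0.71 for Cxcl1, 1.22 for Cxcl2, 0.33 for Cxcl12, 0.50 for Cxcl14 and −0.21 for Cxcl16. Leaving out the highest-scoring doublets gave −0.014 for Ccl2, 0.34 for Ccl7, −0.33 for Cxcl1 and 0.20 for Cxcl2. A median-of-ratios size factor gave −0.029 for Ccl2, 0.34 for Ccl7, −0.57 for Ccl20, −0.23 for Cxcl1, 0.39 for Cxcl2, 0.022 for Cxcl12, 0.61 for Cxcl14 and −0.35 for Cxcl16. The mean over cells gave −1.39 for Ccl1, −0.25 for Ccl2, −0.27 for Cxcl1, 0.23 for Cxcl2, −0.071 for Cxcl12, 0.75 for Cxcl14 and −0.32 for Cxcl16. Without the 5 highest cells the values were −2.11 for Ccl1, 0.011 for Ccl2, −0.55 for Ccl20, −0.28 for Cxcl1 and 0.27 for Cxcl2. With no upper limit on genes they were 0.38 for Ccl7 and −0.20 for Cxcl1. With clusters weighted as in the control library, an alternative chosen after seeing the data, they were −0.51 for Ccl1, 0.20 for Ccl7, −0.29 for Ccl20, −0.54 for Cxcl1, 0.27 for Cxcl2, 0.26 for Cxcl12, 0.54 for Cxcl14 and −0.11 for Cxcl16. The cause was not tested.

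The count of pairs at least 2-fold lower was 14 at a minimum of 100 UMIs and 39 at 1 UMI, against 24. The count at least 2-fold higher was 13 with the listed genes kept for clustering and 11 at resolution 0.4, against 21. The sign changed in the following pairs past 2-fold with at least 200 UMIs. Without the 5 highest cells they were Ccl2 in cluster 7 (0.52) and cluster 14 (−0.14), Ccl7 in cluster 14 (−0.88) and Ccl20 in cluster 12 (−0.29). The last had 0 UMIs left in both libraries, so the UMI totals alone set its sign. Without doublets they were Ccl7 in cluster 19 (−2.91) and Ccl20 in cluster 12 (−0.26). The others were Ccl7 in cluster 2 at resolution 0.4 (−0.38), Ccl20 in cluster 2 with the listed genes kept (−0.33) and Cxcl1 in cluster 16 under 5% mitochondrial UMIs (1.25). Pairs under 2-fold are not in this list, and some of them changed sign too. Without the 5 highest cells Ccl2 went from 0.90 to −0.50 in cluster 6 and from 0.32 to −0.74 in cluster 11.

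No paired analysis was possible because each group holds 1 library. For the same reason leaving out a replicate does not apply. Neither the spread between mice nor a difference between library preparations can be told apart from miR-205 induction. Small clusters and low counts limit the precision, and the intervals cover counting error only.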
